A study of Mus musculus with 6 samples.

Results

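Alveolar type 2 (AT2) cells were studied in mouse lungs that developed in 21% O2 (normoxia) or in 85% O2 (hyperoxia, a model of bronchopulmonary dysplasia). The members were all cells that the deposited cell annotation places in its larger, Lyz1-low AT2 cluster, 4673 of 61839 cells (7.56%), and the annotation, not a measurement made here, gave each cell its type, age and oxygen level. C57BL/6 pups of both sexes breathed room air or 85% O2 from the day of birth, and whole lungs were dissociated on postnatal day (P)3, P7 or P14. Each of the 6 groups held 6 mice, 36 in all, and the 6 mice of a group came from 2 pools of 3, in which cells of each mouse carried a lipid-anchored barcode (MULTI-seq) and 3 mice of each oxygen level were pooled at an age. The P3 and P7 mice of 1 pool shared 2 libraries, and no P14 mouse shared a pool with another age, so that pool and age cannot be told apart in comparisons with P14. All mice are wild type, hyperoxic pups were exposed without a recovery period, and the cells are those that survived enzymatic dissociation. Per the study, the sexes were not equally represented at P3 and P7, and the part of sex in the oxygen effects was not tested.

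AT2 cells are cuboidal cells of the alveolus that make and secrete pulmonary surfactant, the lipid and protein film that lowers surface tension and keeps alveoli open. They store surfactant in lamellar bodies, which are lysosome-related organelles loaded with phospholipid by the transporter *Abca3*, and they divide and give rise to the flat alveolar type 1 (AT1) cells that form most of the gas exchange surface. They also secrete proteins of innate defence. Breathing excess oxygen raises reactive oxygen species, to which cells respond with antioxidant and glutathione genes that are controlled by the transcription factor NRF2 through antioxidant response elements (AREs) in DNA.

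The unique molecular identifiers (UMIs, each counting 1 captured RNA molecule) of the AT2 cells of a mouse were added up, and levels are given as counts per 1000000 UMIs of that sum (CPM), with the lowest, median and highest of the 6 mice of a group. These 3′ counts are not biased by transcript length as full-length reads are, but levels of different genes were not compared per length. A mouse had between 11 and 229 AT2 cells and between 161526 and 3014569 AT2 UMIs. The smallest sum came from a hyperoxic P7 mouse with 11 AT2 cells, and results that rest on it are given without it. AT2 cells had a median of 9297 UMIs and 2511 detected genes, against 4462 UMIs over all cells. Of the cell barcodes, 3 occurred in AT2 cells of 2 libraries, and none of these was in the same mouse.

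The markers of the type were present in these cells. *Sftpc*, the gene of surfactant protein C, took on average 227743 CPM (SD 23475, n = 36 mice), against 23719 CPM in AT1 cells and 952 CPM in general capillary (gCap) cells. Since the cells were clustered by their expression, such differences between types are a description and were not tested. Among genes above 100 CPM, *S100g*, which encodes a calcium-binding protein, the phosphate carrier *Slc34a2*, *Bex2*, *Sftpc*, *Sftpa1*, *Snhg11*, *Lamp3*, the complement gene *Hc* and the transcription factor *Etv5* had some of the largest ratios of AT2 cells to the next highest type outside the AT2 cells, between 7.50 and 10.4. The second highest type was AT1 for each of them. The other AT2 cluster of the annotation, AT2-Lyz1+ (1482 cells), had near-equal levels of these genes, and differed most in *Lyz1*, with 10267 CPM against 435 CPM. Of the markers of other types, the AT1 genes *Ager* and *Hopx* were at 770 and 48.4 CPM, the club cell gene *Scgb1a1* at 654 CPM, the haemoglobin gene *Hbb-bs* at 173 CPM, the endothelial gene *Pecam1* at 5.92 CPM and the leukocyte gene *Ptprc* at 3.28 CPM on average.

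Hyperoxic lungs had a larger share of AT2 cells at P3 and P7 than normoxic lungs of the same age, and the difference at P14 did not pass the test. Their share of all cells at P3 was 7.19% ± 0.813 (SD, n = 6 mice) in normoxia and 8.81% ± 1.0 in hyperoxia (two-sided exact permutation test, adjusted p = 0.0195). At P7 the shares were 5.67% ± 1.07 and 9.44% ± 1.90 (exact permutation test, adjusted p = 0.0130), and at P14 they were 7.39% ± 0.886 and 7.06% ± 0.800 (exact permutation test, adjusted p = 0.513). Within the pools the difference was 2.02 and 1.23 percentage points at P3, 3.62 and 3.93 at P7 and -0.726 and 0.0611 at P14. *Lyz1*, in which the 2 AT2 clusters differ most, fell in hyperoxia, so both AT2 clusters were also pooled. Their share was 10.1% in normoxia and 11.6% in hyperoxia at P3 (exact permutation test, adjusted p = 0.112), 8.04% and 12.6% at P7 (adjusted p = 0.0130) and 9.42% and 8.49% at P14 (adjusted p = 0.112). A share in a dissociated lung cannot tell more AT2 cells from fewer cells of other types.

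As a share of epithelial cells, AT2 cells rose at P3 and fell at P14. They were 38.9% ± 2.91 of epithelial cells in normoxic and 45.9% ± 2.71 in hyperoxic lungs at P3 (exact permutation test, adjusted p = 0.0130), and 54.2% ± 3.84 and 45.9% ± 6.27 at P14 (adjusted p = 0.0351). At P7 the values were 42.5% ± 6.07 and 50.9% ± 8.55, and this difference did not pass (adjusted p = 0.112).

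Hyperoxic AT2 cells held more UMIs. The median per cell was 11500 ± 481 in normoxia and 14602 ± 817 in hyperoxia at P7, and 6937 ± 194 and 13407 ± 1303 at P14, without overlap between groups at either age (exact permutation test, adjusted p = 0.00325 for both). At P3 the means were 7435 and 9045 UMIs (adjusted p = 0.522), and the 2 pools stood apart, with 4068.5 to 5320.5 UMIs in 1 pool and 10184 to 13529 in the other. Within each pool at P3, hyperoxic cells had more UMIs, by 1134 and 2085. With labels permuted within pools the P3 difference passed (exact permutation test, adjusted p = 0.005). The share of UMIs from the mitochondrial genome was higher too, by 0.719, 1.41 and 3.09 percentage points at P3, P7 and P14 (exact permutation test, adjusted p = 0.0325, 0.00325 and 0.00325), reaching 8.35% ± 0.381 in hyperoxic P14 cells against 5.26% ± 0.337. With the UMIs of hyperoxic AT2 cells thinned at random to 85.3%, 76.9% and 50.8% at the 3 ages, so that the median over the mice of a group was equal between the oxygen levels, 680, 1161 and 2805 genes were called, against 712, 1233 and 3190 without thinning. These were 8.5%, 14.5% and 35.1% of 7998 genes tested after thinning, and 8.17%, 14.1% and 36.6% of 8715 without it. The median UMIs over gCap cells were higher in hyperoxia as well at each age, with 2038 in normoxia and 4445 in hyperoxia at P14. This difference in gCap cells was not tested.

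**Figure D1:**
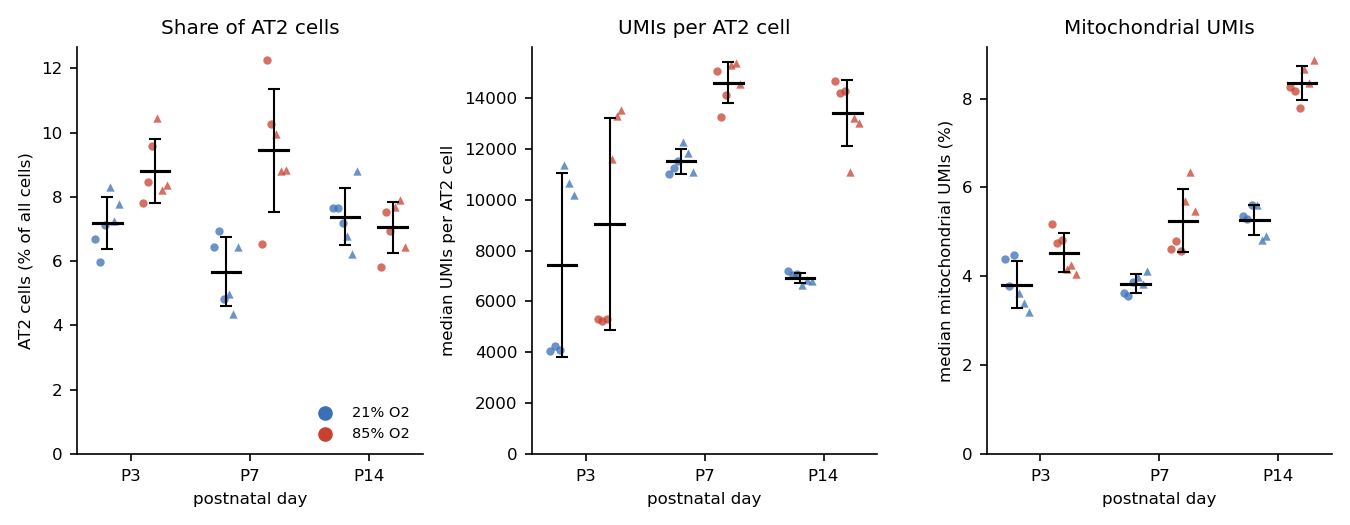
AT2 cells as a percentage of all cells (left), the median number of UMIs per AT2 cell (middle) and the median percentage of mitochondrial UMIs per AT2 cell (right) for each of the 36 mice, by age and oxygen level. Points are mice, triangles and circles mark the 2 pools of an age, and bars are the mean ± SD of 6 mice; hyperoxic P14 mice held 11093.5 to 14679 UMIs per cell, above the 6661 to 7176 of normoxic P14 mice.

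Hyperoxia changed more genes of AT2 cells at P14 than at P3 or P7. Of 8715 genes tested, 712 were called at P3 (8.17%, 407 higher and 305 lower), 1233 at P7 (14.1%, 661 higher and 572 lower) and 3190 at P14 (36.6%, 1687 higher and 1503 lower). A gene was called where edgeR's quasi-likelihood test gave a Benjamini-Hochberg adjusted p under 0.05 and at least 10% of the AT2 cells of a compared group had a UMI of it. Scaling to plain library totals, without the trimmed mean of M values (TMM), gave 468 higher and 773 lower at P7. A fit with the pool as a replicate block called 1047, 1559 and 3524 genes at P3, P7 and P14 (12%, 17.9% and 40.4%). The values of the 6 hyperoxic and 6 normoxic mice did not overlap for 370 genes at P3 (4.25%), 510 at P7 (5.85%) and 1552 at P14 (17.8%). Within single pools of 3 against 3 mice, 734 and 347 genes were called at P3, 730 and 589 at P7 and 2866 and 1736 at P14. Of the called genes that could be fitted in both pools, 687 of 689 at P3, 1187 of 1187 at P7 and 3094 of 3113 at P14 had the same direction in both. The change from P7 to P14 was tested as an interaction, and the oxygen effect differed between these ages for 705 genes (8.09%, 336 or 3.86% more positive and 369 or 4.23% more negative at P14). With the pool as a replicate block this number was 1058. Between P3 and P7 the oxygen effect differed for 2 genes (0.0229%), *Lcn2* and *Aqp3* (592 genes had an unadjusted p under 0.05, DESeq2 called 3, and the fit with the replicate block called 10).

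**Figure D2:**
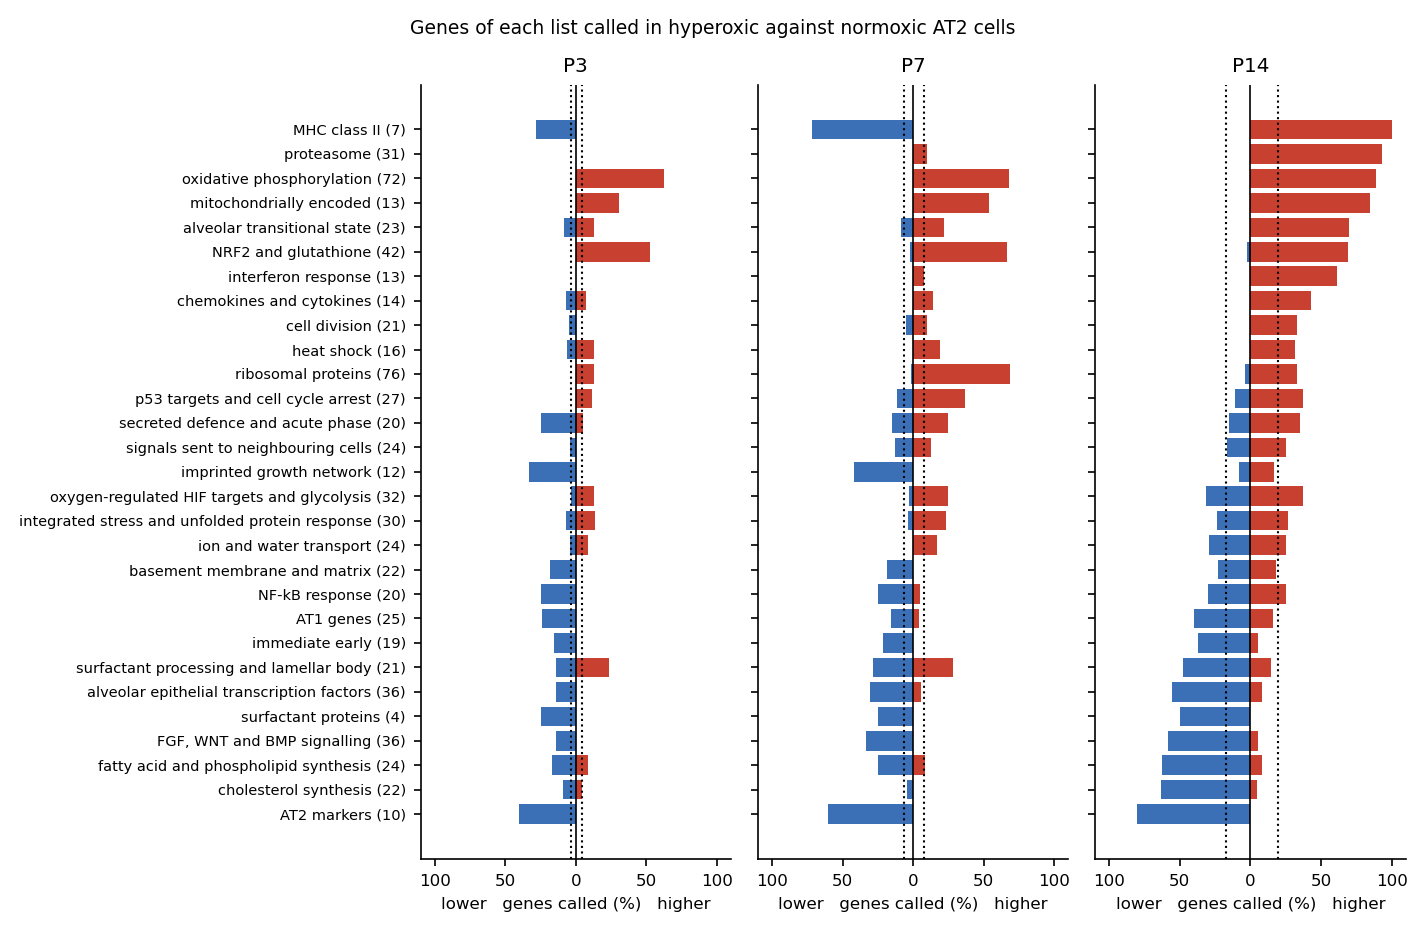
Number of genes of each list that were called higher (right of 0) or lower (left of 0) in hyperoxic than in normoxic AT2 cells at P3, P7 and P14, as a percentage of the list's tested genes, with the number tested beside the list's name. Dotted lines mark the percentage of all 8715 tested genes called in that direction at the age; 64 of 72 OXPHOS genes were higher at P14 and the MHC class II genes turn from lower to higher at P14.

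The genes with the largest changes came from several groups. Among called genes whose average log2 CPM was 6 or more, the largest increases at P3 were in *Creg1*, a secreted lysosomal glycoprotein (1.66 (SE 0.11, adjusted p = 9.97e-16)), both metallothioneins, *Ftl1* and *Spink5*, and in *Renbp*, *Lgals3*, *Nupr1*, *Gpx1* and the mitochondrial gene *Chchd10*. The level of *Creg1* was from 129.6 to 163 CPM in normoxia (median 147) and from 435 to 490.5 CPM in hyperoxia (median 442) at P3, without overlap. At P7 *Cox6a2*, *Slpi*, *Hp*, *Mif*, *Lcn2*, *Lrg1*, *Lgals3*, *Creg1* (1.40), the mitochondrial chaperone gene *Hspa9* (1.38) and *Cdkn1a* led, and at P14 *Slpi*, *Clu*, *Mif*, *Lgals3*, *Lcn2*, *Pmepa1*, the nucleoside diphosphate kinase gene *Nme1* (2.01), *Ly6c1*, *Bax* and *Cdkn1a*. The largest decreases at P3 were in *Lyz1*, *Apoc1*, an apolipoprotein gene (-1.44), *Dlk1*, the stress gene *Gadd45b* (-1.01), *Serpinb6b*, *Meg3*, *Crip2*, *Hexim1*, the NF-κB inhibitor gene *Nfkbia* (-0.89) and *Insig1*. At P7 they were in *Lyz1*, *Dlk1*, *Id3*, the protease gene *Adamts1* (-1.43), *Acoxl*, *Id1*, *Meg3*, *Klf4*, *Fam46a* and *Enpep*, and at P14 they included *Acoxl*, *Meg3*, *Lyz1*, *Fam46a* (-1.93), *Mettl7a1*, *Scgb1c1*, *Cat*, the BMP pseudoreceptor gene *Bambi* (-1.63) and *Id3*. *Lyz1* separates the 2 AT2 clusters, so its place among the decreases is a description. Its change over both clusters together is given below.

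Many antioxidant and glutathione genes were higher in hyperoxia at every age. Of 42 tested genes of the NRF2 list, 22 were higher and none lower at P3, 28 were higher and 1 lower at P7, and 29 were higher and 1 lower at P14, against 4.67%, 7.58% and 19.4% of all genes that were higher. The median log2 fold change of the list was 0.60, 0.56 and 0.65, against a median over all tested genes of -0.02, -0.01 and -0.01. A set of 16 genes was higher at all 3 ages, and holds enzymes of glutathione synthesis and use (*Gclc*, *Gsta3*, *Gstm1*, *Gpx1*, *Gpx2*, *Gpx4*), thioredoxin and peroxide enzymes (*Txnrd1*, *Prdx1*), reductases and NADPH enzymes (*Akr1b8*, *Akr1a1*, *Taldo1*, *Me1*), ferritin (*Ftl1*, *Fth1*) and metallothioneins (*Mt1*, *Mt2*).

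*Gsta3*, a glutathione S-transferase that detoxifies lipid peroxidation products, had the largest change of the list at P3 (gene at chr1:21240589-21265661, GRCm38, GENCODE vM21). Its level at P3 was from 2.23 to 10.3 CPM in normoxia (median 4.85) and from 26.2 to 54.3 CPM in hyperoxia (median 41.3), with no overlap between the groups. At P7 it was from 9.43 to 17.9 CPM in normoxia (median 15.5) and from 61.8 to 72.1 CPM in hyperoxia (median 66.4), and at P14 from 17.9 to 27 CPM in normoxia (median 23.2) and from 54.9 to 121 CPM in hyperoxia (median 66.7). The groups were apart at all ages, while the normoxic level rose with age, and the log2 fold change was 2.97 (SE 0.28, adjusted p = 1.82e-10), 2.24 and 1.73. Within the pools it was 2.48 and 3.53 at P3 and 1.23 and 2.17 at P14. *Ftl1*, the ferritin light chain that stores iron, was among the most abundant genes of the set, at levels from 1942 to 2194 CPM in normoxia (median 2065) and from 4845 to 6019 CPM in hyperoxia (median 5515) at P3 and from 1552 to 1786 CPM in normoxia (median 1616) and from 2899 to 4295 CPM in hyperoxia (median 3461) at P14. The groups were apart at each age, and its log2 fold change was 1.43 (SE 0.09, adjusted p = 6.5e-17) at P3, 1.19 at P7 and 1.14 at P14. *Gclc*, the catalytic subunit of the enzyme that limits glutathione synthesis, rose at each age, with log2 fold changes of 0.75 (SE 0.12, adjusted p = 3.49e-05), 0.76 and 0.65. The glutathione S-transferases of the Gsta family, *Ftl1*, *Mt1* and *Mt2* have near-identical copies with which reads may be shared, so their values are less certain.

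Other members changed unequally with age. *Gpx1*, a glutathione peroxidase that removes hydrogen peroxide, rose most at P3, from a median of 438 to 889 CPM, and its log2 fold changes at the 3 ages in turn were 1.09, 0.84 and 0.26 (interaction of P14 with P7 -0.59, adjusted p = 0.00543). The P14 call of *Gpx1* was lost within 1 pool (0.08, edgeR adjusted p = 0.527) and without the filter on low counts (adjusted p = 0.0835). In the same pool those of *Gpx4* (0.16) and *Gstm1* (0.12) were lost, and in 1 P7 pool that of *Txnrd1* (0.19). *Me1*, the cytosolic malic enzyme that makes NADPH, went the other way, with 0.35, 0.95 and 1.47 (interaction 0.52, adjusted p = 0.0266). With plain library totals its P3 value was 0.31 and not called (adjusted p = 0.0765). The interaction of *Me1* was not called with equal group medians of UMIs per cell (edgeR adjusted p = 0.0503). Without the filter on low counts it was not called either (edgeR adjusted p = 0.0652). *Sod2*, the mitochondrial superoxide dismutase, was not called at P3 (0.34, adjusted p = 0.26) and rose at P7 and P14, by 1.19 and 1.26. The detoxifying genes *Ephx1* and *Cbr3* rose at P7, by 1.68 and 1.76, and at P14, by 1.60 and 2.34. *Nfe2l2*, the gene of NRF2 itself, was not called at any age, with log2 fold changes of 0.27, 0.13 and -0.13 (adjusted p between 0.0769 and 0.427). At P3 it was called with the pool as a replicate block (adjusted p = 0.0349), and at P14 as lower within 1 pool (-0.28, edgeR adjusted p = 0.0407).

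*Cat*, catalase, which breaks down hydrogen peroxide in peroxisomes, was the member of the list that fell at P7 and P14, and with the pool as a replicate block *Sod1* was lower as well at P14. At P14 its level was from 423 to 491 CPM in normoxia (median 462) and from 109 to 172 CPM in hyperoxia (median 123), without overlap. The log2 fold change was -1.80 (SE 0.12, adjusted p = 1.82e-16), -0.50 at P7 and -0.08 at P3 (adjusted p = 0.752), and -1.96 and -1.66 within the P14 pools. In normoxia *Cat* rose from P7 to P14 by 0.61, and in hyperoxia it fell by 0.69 over the same days (interaction -1.30 (SE 0.16, adjusted p = 1.48e-06)). The superoxide dismutase of the cytosol, *Sod1*, was not called over all mice at any age, but with the pool as a replicate block was higher at P3 (0.34, edgeR adjusted p = 0.0130) and lower at P14 (-0.25, edgeR adjusted p = 0.0200), as it was within 1 P14 pool (-0.43, edgeR adjusted p = 0.00203).

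The ARE core, TGAC and GCA with any 3 bases between them, was looked up on both strands in the promoters of the list's genes, from 250 bases before to 50 bases after the start of the RefSeq transcript (RefSeq, GRCm38.p6). It occurred in 3 of the 36 promoters of tested list genes that had an entry (8.33%) and in 2 of the 15 of the genes higher at all ages, against 932 of 27025 promoters of all genes (3.45%) and 196 of 6894 of the tested genes (2.84%). The promoters of *Gsta3* and *Txnrd1* are printed because both genes rose at all ages and held the motif, which stands in capitals. The *Gsta3* promoter lies at chr1:21240335-21240634 on the plus strand with the motif starting 121 bases before the start site. That of *Txnrd1* lies at chr10:82858956-82859255 on the plus strand, with the motif on the minus strand starting 93 bases before the start site. The *Txnrd1* window lies inside the annotated span of the gene, chr10:82833951-82897712, and not at its 5′ end.
Gsta3: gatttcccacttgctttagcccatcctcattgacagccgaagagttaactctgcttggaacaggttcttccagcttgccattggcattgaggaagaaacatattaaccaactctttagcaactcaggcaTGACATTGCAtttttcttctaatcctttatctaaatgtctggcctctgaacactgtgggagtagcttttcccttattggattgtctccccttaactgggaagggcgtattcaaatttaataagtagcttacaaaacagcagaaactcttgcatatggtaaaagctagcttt
Txnrd1: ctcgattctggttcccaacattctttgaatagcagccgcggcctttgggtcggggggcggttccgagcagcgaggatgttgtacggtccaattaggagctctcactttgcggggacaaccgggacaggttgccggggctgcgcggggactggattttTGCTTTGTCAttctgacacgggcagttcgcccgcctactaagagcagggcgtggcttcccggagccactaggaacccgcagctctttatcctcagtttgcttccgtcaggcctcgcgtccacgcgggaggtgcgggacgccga
Each has 1 match in its 300 bases, and 33 list promoters had none in this window.

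Most genes of the respiratory chain were higher in hyperoxia at each age, and most of the proteasome at P14. Of 72 tested nuclear genes of oxidative phosphorylation, 45, 49 and 64 were higher at P3, P7 and P14 (4.67%, 7.58% and 19.4% of all genes), and none was lower at any age. Their median log2 fold change was 0.36, 0.39 and 0.63. The complex I subunit gene *Ndufa1* was called at P7 and P14, with 0.43 and 1.09, and *Ndufa12* at all ages, with 0.54, 0.45 and 1.06. *Cox6a2*, a muscle form of a cytochrome c oxidase subunit, had the largest increase of all well-expressed genes at P7, from 20.8 to 49 CPM in normoxia (median 30.5) and from 71.7 to 362 CPM in hyperoxia (median 162) (log2 fold change 2.85 (SE 0.32, adjusted p = 1.26e-08)). The groups did not overlap at P7 or at P14, where it was 1.28. Of the 13 protein genes of the mitochondrial genome, 4, 7 and 11 were higher at the ages in turn. The summed level of these 13 at P14 was 49642 to 58659 CPM in normoxia and 81070 to 89084 CPM in hyperoxia, and since it rises with the mitochondrial share of a cell's UMIs, its part in these counts was not tested.

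All but 2 of the 31 proteasome genes were higher at P14 (median log2 fold change 0.59), among them *Psmb5*, a catalytic subunit, by 1.06, while 3 were higher at P7 and none at P3. The oxygen effect on 10 of them was larger at P14 than at P7 by the interaction test, against 3.86% of all genes. In normoxic cells 20 of the same 31 genes fell from P7 to P14 (median -0.36), and in hyperoxic cells none was called over these days. Of all genes, 10.1% fell in normoxia, and 3.82% rose and 3.82% fell in hyperoxia. Of 76 ribosomal protein genes, 10 were higher at P3, 52 at P7 (1 lower) and 25 at P14 (3 lower), where 4.67%, 7.58% and 19.4% of all genes were higher and 3.5%, 6.56% and 17.2% lower at the ages in turn. With the pool as a replicate block, 45 ribosomal protein genes were higher at P3 and 6 lower at P14, and 5 and 6 proteasome genes were higher at P3 and P7. The fit with the block called 6.91% and 9.63% of all genes higher at P3 and P7 and 19.1% lower at P14.

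**Figure D3:**
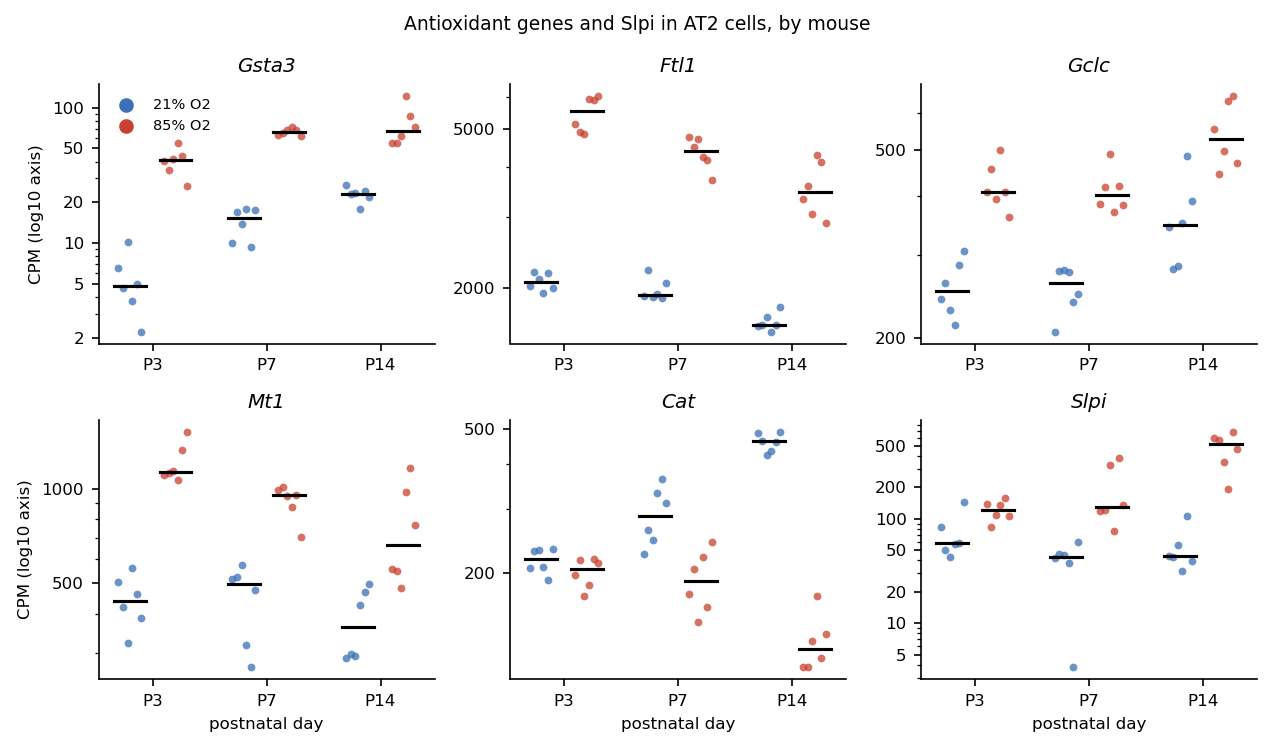
Level of 6 genes in AT2 cells of each mouse (CPM on a log10 axis) by age and oxygen level. Points are mice and short bars the median of 6 mice. *Gsta3*, *Ftl1*, *Gclc* and *Mt1* were called higher in hyperoxia at all ages, with overlap between the groups at P14 in *Gclc* and *Mt1*. *Cat* lies lower at P14, where its levels are 109 to 172 CPM against 423 to 491, and *Slpi* rises most at P14.

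Most of the AT2 markers were lower at P7 and P14, and some of the surfactant protein genes. Here and elsewhere, lower means a smaller part of the AT2 UMIs of a mouse. The median UMIs per AT2 cell averaged 6937 in normoxic and 13407 in hyperoxic P14 mice. A lower share therefore need not mean fewer molecules per cell, which were not compared. Of 10 tested AT2 markers, none was higher, and 4, 6 and 8 were lower at P3, P7 and P14, against 3.5%, 6.56% and 17.2% of all genes that were lower. Of the 4 surfactant protein genes 1, 1 and 2 were lower at the ages in turn. *Sftpa1*, which encodes a collectin that binds microbes, was lower at all ages. Its level was from 16142 to 22637 CPM in normoxia (median 17869) and from 8621 to 12963 CPM in hyperoxia (median 10905) at P3 and from 13978 to 17554 CPM in normoxia (median 15835) and from 7755 to 10733 CPM in hyperoxia (median 9424) at P14, without overlap at these ages, and the log2 fold change was -0.75 (SE 0.14, adjusted p = 0.000315), -0.44 and -0.72. Without the P7 mouse with 11 AT2 cells, the P7 value was -0.39 and not called (adjusted p = 0.0758). *Sftpb*, needed for the surfactant film to spread, was lower at P14 (-0.36 (SE 0.12, adjusted p = 0.0163)). *Sftpc* was not called over all mice at any age, but was lower within both P14 pools (-0.11 and -0.18, edgeR adjusted p = 0.0156 and 0.0057) and within 1 P3 pool (-0.18, edgeR adjusted p = 0.0408). It ranged from 207851 to 230789 CPM in normoxia (median 220075) and from 169141 to 214834 CPM in hyperoxia (median 197480) at P14, with a log2 fold change of -0.15 (SE 0.07, adjusted p = 0.08). It passed the test at P14, as lower, with the pool as a replicate block (-0.15, edgeR adjusted p = 0.00894), with plain library totals (adjusted p = 0.0101) and with DESeq2 (adjusted p = 0.0456). At P7 it passed as lower with plain library totals (adjusted p = 0.0294).

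*Abca3*, which moves phospholipid into the lamellar body and whose loss causes surfactant deficiency, fell at each age (gene at chr17:24351950-24410201, GRCm38). At P14 it was from 846 to 1059 CPM in normoxia (median 907) and from 362 to 505 CPM in hyperoxia (median 423). The groups were apart at P7 and P14, and the log2 fold changes were -0.41, -0.44 and -1.11 (SE 0.09, adjusted p = 4.73e-13). In normoxia *Abca3* rose from P7 to P14 by 0.49, and in hyperoxia the change was not called (-0.19, adjusted p = 0.254; interaction -0.67, adjusted p = 0.00061). *Slc34a2*, the sodium-phosphate carrier that recovers phosphate from surfactant, was also lower at P14, where it was from 5719.7 to 6286 CPM in normoxia (median 6054) and from 2823 to 3286 CPM in hyperoxia (median 3085). Its oxygen effect was -0.94 (SE 0.08, adjusted p = 1.65e-12) at P14 and -0.11 at P7 (adjusted p = 0.402), and the interaction was -0.82 (SE 0.12, adjusted p = 5.08e-06). *Lpcat1*, which makes the dipalmitoyl form of phosphatidylcholine in surfactant, fell by 0.43, 0.57 and 1.07 on the log2 scale at the 3 ages, and *Napsa*, a protease that processes surfactant proteins, by 0.42 at P7 and 0.72 at P14.

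The lamellar body list was mixed at P3 and P7, and more of its genes were lower than higher at P14. Of its 21 tested genes, 5 were higher and 3 lower at P3, 6 and 6 at P7, and 3 and 10 at P14, against 4.67%, 7.58% and 19.4% of all genes higher and 3.5%, 6.56% and 17.2% lower. With the pool as a replicate block, 6 were lower at P3, against 5.11% of all genes in that fit. The higher genes included *Lamp1* (0.52, 0.62 and 0.77) and *Cd63* (0.42, 0.58 and 0.80) at all ages, *Lamp2* and *Atp6v1a* at P3 and P7, and *Ctsh*, a cathepsin that processes surfactant protein, at P7 and P14. *Prdx6*, which has phospholipase activity towards surfactant lipid and is also an antioxidant enzyme, was higher at P3 and P7.

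Most lipid synthesis genes were lower at P14. Of 24 genes of fatty acid and phospholipid synthesis 4, 6 and 15 were lower at P3, P7 and P14 (3.5%, 6.56% and 17.2% of all genes), and 2 were higher at each age. *Fasn*, fatty acid synthase, was lower at all of them (-0.68, -0.41 and -0.49). *Pcyt1a*, the enzyme that sets the rate of phosphatidylcholine synthesis, fell at P14, from a median of 73.4 to 36.4 CPM (-1.02 (SE 0.14, adjusted p = 4.57e-08); interaction -0.90, adjusted p = 0.00151). *Plin2*, a coat protein of lipid droplets, was higher at P3 and P7, by 0.75 and 0.48. *Acoxl*, an acyl-CoA oxidase-like gene, had the largest decrease of all well-expressed genes at P14. In normoxia its median rose from 51.1 CPM at P3 to 125 at P7 and 195 at P14, and at P14 its level was from 172 to 236 CPM in normoxia (median 195) and from 11.9 to 29 CPM in hyperoxia (median 17.3) (log2 fold change -3.42 (SE 0.20, adjusted p = 9.44e-18), within the pools -3.78 and -3.07).

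Cholesterol synthesis genes were mostly lower at P14. Of 22 tested genes, 14 were lower (17.2% of all genes) and 1 higher at P14 (median log2 fold change -0.67), against 2 lower and 1 higher at P3 and 1 lower at P7, and the oxygen effect of 7 was more negative at P14 than at P7 by the interaction test. Of all genes, 3.5% and 6.56% were lower at P3 and P7, and 4.67% and 19.4% higher at P3 and P14. By the interaction test 4.23% of all genes were more negative at P14. *Idi1*, of the isoprenoid step, fell by 1.09 on the log2 scale at P14, and *Insig1*, an inhibitor of SREBP activation that is itself induced by it, by 1.51. The transcription factor genes of the pathway, *Srebf2* and *Srebf1*, were lower at P14 as well (-1.13 and -0.34).

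**Figure D4:**
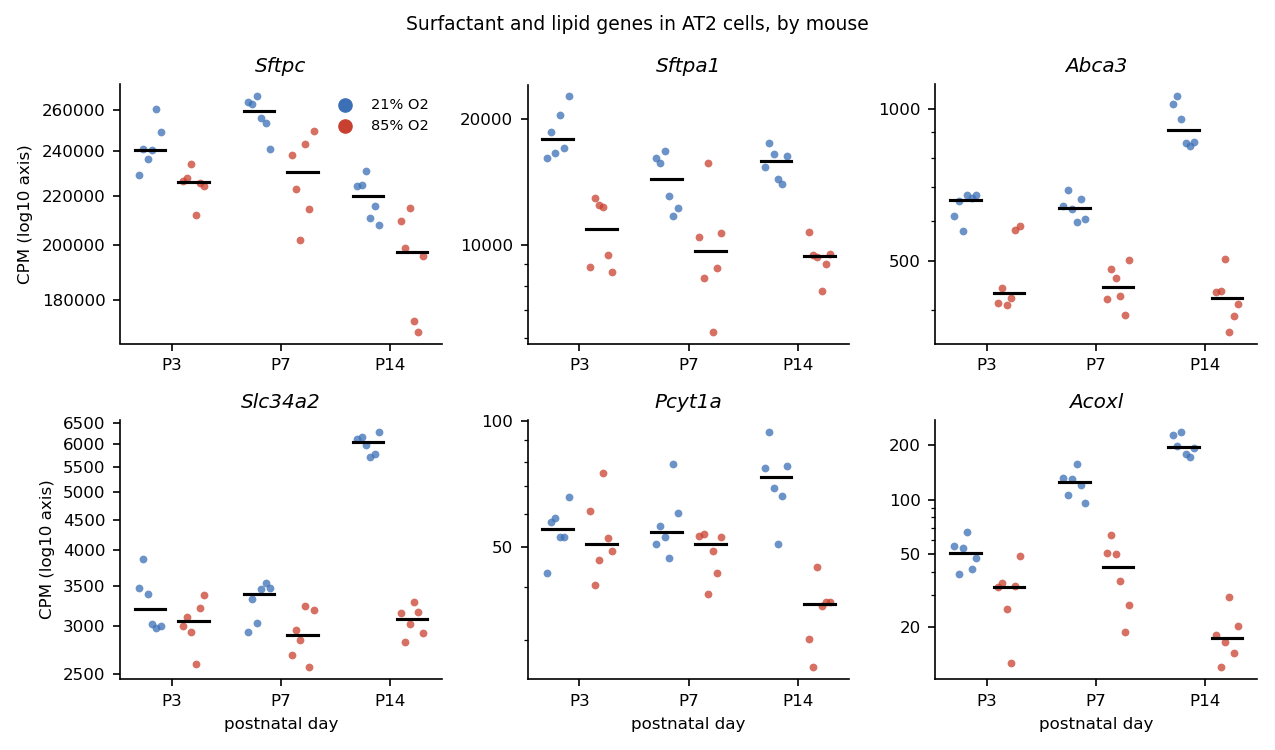
Level of 6 genes in AT2 cells of each mouse (CPM on a log10 axis) by age and oxygen level. Points are mice and short bars the median of 6 mice; the hyperoxic and normoxic P14 mice do not overlap in *Abca3*, *Slc34a2*, *Pcyt1a*, *Acoxl* and *Sftpa1*, whereas those of *Sftpc* do.

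Secreted proteins of defence and the acute phase were among the largest increases at P7 and P14. *Slpi*, an inhibitor of neutrophil elastase, had levels from 3.77 to 60.2 CPM in normoxia (median 43.2) and from 77.2 to 384 CPM in hyperoxia (median 129.7) at P7 and from 31.4 to 106 CPM in normoxia (median 43.6) and from 194 to 683 CPM in hyperoxia (median 519) at P14. The groups were apart at both ages, with log2 fold changes of 2.16 (SE 0.34, adjusted p = 7.46e-06) and 3.22 (SE 0.32, adjusted p = 4.54e-11), and of 0.74 at P3 (adjusted p = 0.158; called as higher within 1 pool, 0.92, edgeR adjusted p = 0.000423). *Lcn2*, a siderophore-binding protein of innate defence, was higher at P7 and P14 (1.61 and 2.33 (SE 0.30, adjusted p = 1.86e-08)). At P3 its change was -0.60 (adjusted p = 0.203; called as lower within 1 pool, -0.57, edgeR adjusted p = 9.47e-05, and without the filter on low counts), and the P7 effect exceeded the P3 effect by 2.21 (SE 0.41, adjusted p = 0.0185). Among hyperoxic P7 mice *Lcn2* spread from 751 to 5707 CPM, a wider range than in the other 5 groups. *Clu*, a secreted chaperone, was not called at P3 (0.08), higher at P7 (1.09) and higher still at P14, where it was from 25.6 to 41.1 CPM in normoxia (median 37.7) and from 164 to 348 CPM in hyperoxia (median 277) (2.92 (SE 0.18, adjusted p = 5.66e-17); interaction 1.82, adjusted p = 1.11e-05).

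*Mif*, which the study describes as a regulator of innate immunity, rose at every age and without overlap. Its level was from 147 to 206 CPM in normoxia (median 194) and from 245 to 427 CPM in hyperoxia (median 365) at P3, from 220 to 255 CPM in normoxia (median 235) and from 392 to 1201 CPM in hyperoxia (median 667) at P7 and from 156 to 212 CPM in normoxia (median 179) and from 893 to 1364 CPM in hyperoxia (median 1239) at P14. The log2 fold change was 0.96, 1.61 and 2.75 (SE 0.16, adjusted p = 9.44e-18), larger at P14 than at P7 by 1.14 (SE 0.22, adjusted p = 0.000431). *Spink5*, a serine protease inhibitor, rose at the 3 ages, by 1.22, 1.15 and 1.38. The acute phase genes *Hp*, haptoglobin, and *Lrg1* rose at P7, by 1.65 and 1.52, and *Lrg1* also at P14 (1.36). The change of *Hp* at P14 was 0.39 (adjusted p = 0.266; called as higher within 1 pool, 0.31, edgeR adjusted p = 0.0384), and its normoxic level rose from P7 to P14. Over the whole list of secreted defence genes, 1, 5 and 7 of 20 tested genes were higher (4.67%, 7.58% and 19.4% of all genes) and 5, 3 and 3 lower (3.5%, 6.56% and 17.2%). Of 14 chemokine and cytokine genes, 6 were higher at P14 (19.4% of all genes) and none lower, among them *Cxcl17* (2.27), the fractalkine gene *Cx3cl1* (1.93) and *Csf2*, the growth factor of alveolar macrophages (1.16; not called with DESeq2, adjusted p = 0.138, or with equal group medians of UMIs per cell, adjusted p = 0.0571).

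*Lyz1* and *Lyz2* encode lysozymes and are near-identical, so reads may be split between them. Because *Lyz1* separates the 2 AT2 clusters, its log2 fold changes within the Lyz1-low cluster, -2.34, -2.70 and -2.74, are a description, and the change was computed over both clusters together, where it was -0.81, -0.95 and -1.46 (edgeR adjusted p = 0.0132, 0.00223 and 1.4e-06). *Lyz2* was lower by 0.43, 0.40 and 0.44 on the log2 scale. At P7 the fall of *Lyz2* was not called without the mouse with 11 AT2 cells (-0.38, adjusted p = 0.0702). Over both clusters together it was not called at P3 (-0.34, edgeR adjusted p = 0.0600) or at P7 (-0.32, edgeR adjusted p = 0.0587).

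The class II antigen presentation genes turned from lower to higher. *Cd74*, the invariant chain, *H2-Aa*, *H2-Ab1* and *H2-Eb1*, the chains of the class II molecule, *H2-DMa* and *H2-DMb1*, which load its peptide, and *Ciita*, the factor that drives them all, were the 7 tested genes of the list. At P7 5 of them were lower in hyperoxia, at P14 all 7 were higher, and the oxygen effect of all 7 was more positive at P14 than at P7 by the interaction test (median difference 1.92). At P3 2 were lower, or 4 with the pool as a replicate block. Of all genes, 3.5% were lower at P3 (5.11% with the block), 6.56% were lower at P7 and 19.4% were higher at P14. By the interaction test 3.86% of all genes were more positive at P14. *Cd74* was from 786 to 1189.7 CPM in normoxia (median 903) and from 366 to 764 CPM in hyperoxia (median 594) at P3 and from 867 to 1715 CPM in normoxia (median 1397) and from 1994 to 3119 CPM in hyperoxia (median 2636) at P14, without overlap at both ages but in opposite order. At P7 it was from 1822 to 2821 CPM in normoxia (median 2426) and from 474 to 2674 CPM in hyperoxia (median 1552), with overlap. The log2 fold change was -0.67 (SE 0.20, adjusted p = 0.0263), -0.61 (SE 0.20, adjusted p = 0.0293) and 0.97 (SE 0.20, adjusted p = 0.000101), and the P14 effect exceeded that at P7 by 1.58 (SE 0.28, adjusted p = 0.000171). With DESeq2 the P7 value was -0.60 and not called (adjusted p = 0.0681). Within the pools it was -1.11 and -0.28 at P3, -0.30 and -1.11 at P7 and 1.40 and 0.58 at P14, and the smaller of the values at P3 and at P7 was not called (edgeR adjusted p = 0.139 and 0.0957).

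The normoxic course of these genes had a peak at P7. In normoxia 6 of the 7 rose from P3 to P7 and 5 fell from P7 to P14, and in hyperoxia all 7 rose over each of the intervals. Of all genes, 0.792% rose over the first and 10.1% fell over the second interval in normoxia. In hyperoxia 1.38% and 3.82% of all genes rose over them in turn. No P14 mouse shared a pool with a P7 mouse, so pool and age cannot be told apart in the second interval. *H2-Ab1* had medians of 90.3, 359.9 and 241 CPM in normoxia and of 47.1, 198 and 626 CPM in hyperoxia. Its interaction was 2.26 (SE 0.42, adjusted p = 0.000331) and that of *Ciita* 2.12 (SE 0.35, adjusted p = 8.02e-05). The summed level of macrophage and neutrophil markers other than *Lyz2*, which AT2 cells express, was 60.7 to 87.9 CPM in hyperoxic and 72.1 to 89.6 CPM in normoxic P14 AT2 cells, and that of lymphocyte markers 12.9 to 33.8 and 29.7 to 48.5 CPM. The class I genes H2-K1 (1.09), H2-D1 (0.69) and *B2m* (1.52) and the immunoproteasome genes *Psmb8* (1.41) and *Psmb9* (1.79) were higher at P14. They are among 8 of 13 interferon response genes that were, none of which was called at P3 and 1 at P7. Of all genes, 4.67%, 7.58% and 19.4% were higher at P3, P7 and P14.

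**Figure D5:**
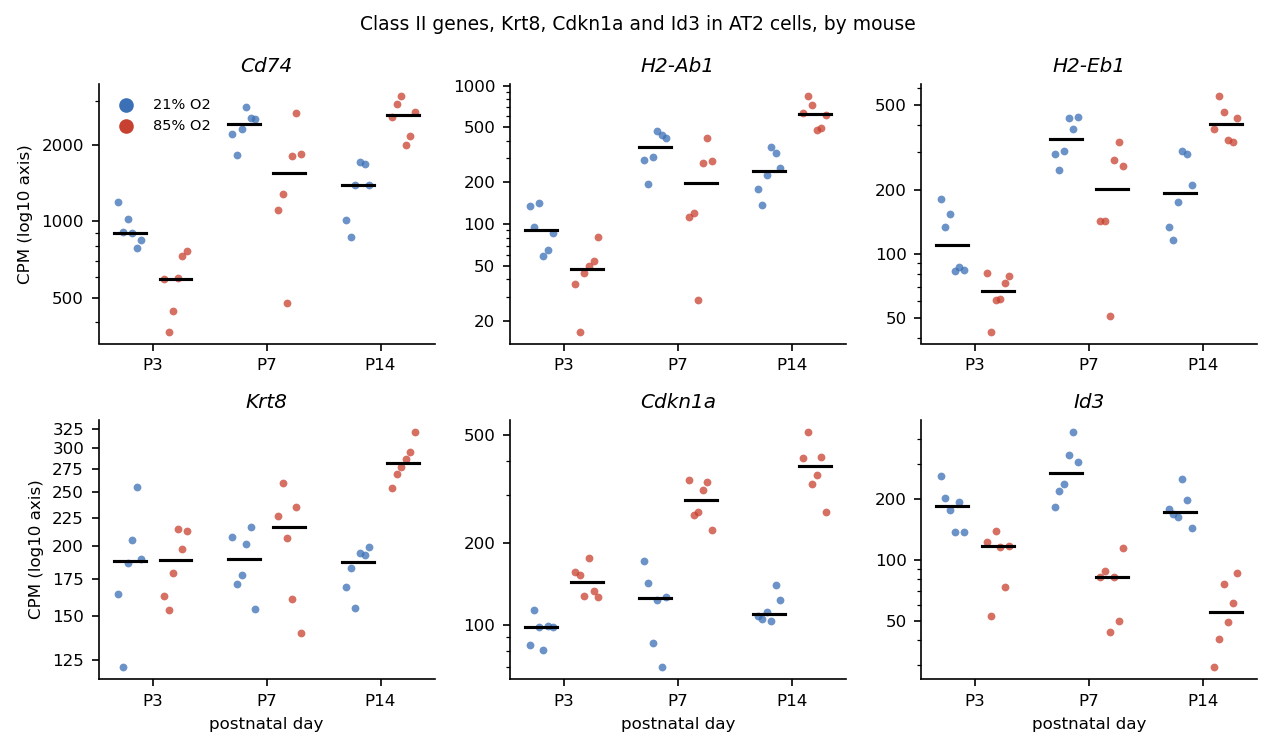
Level of 6 genes in AT2 cells of each mouse (CPM on a log10 axis) by age and oxygen level, with the class II genes *Cd74*, *H2-Ab1* and *H2-Eb1* above and *Krt8*, *Cdkn1a* and *Id3* below. Points are mice and short bars the median of 6 mice; *Cd74* lies lower in hyperoxia at P3 (366 to 764 against 786 to 1190 CPM) and higher at P14 (1994 to 3119 against 867 to 1715 CPM).

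Some targets of p53 that mark cell cycle arrest were higher in hyperoxia, few of them at P3 and more at P7 and P14. *Cdkn1a*, the inhibitor of cyclin-dependent kinases p21, was from 80.5 to 114 CPM in normoxia (median 98.3) and from 126 to 176 CPM in hyperoxia (median 143) at P3, from 69.8 to 171 CPM in normoxia (median 125) and from 224 to 341 CPM in hyperoxia (median 287) at P7 and from 103 to 140.3 CPM in normoxia (median 109.7) and from 260 to 512 CPM in hyperoxia (median 383) at P14. The groups were apart at each age, with log2 fold changes of 0.64 (SE 0.16, adjusted p = 0.00562), 1.28 and 1.76 (SE 0.15, adjusted p = 4.08e-13), and the interaction between P14 and P7 did not pass (0.47, adjusted p = 0.158). *Bax*, which promotes apoptosis, rose by 0.73, 0.72 and 1.83, and *Ccng1* by 1.06, 1.33 and 2.17. *Phlda3*, an inhibitor of AKT, and the stress cytokine *Gdf15* rose at P7 and P14, by 3.40 and 3.13 at P14. Of the list's 27 tested genes, 3, 10 and 10 were higher (4.67%, 7.58% and 19.4% of all genes) and 0, 3 and 3 lower (3.5%, 6.56% and 17.2%). The lower ones included *Plk2* and *Bbc3*, at P7 and P14.

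Of 21 tested genes of cell division, 7 were higher and none lower at P14, where 19.4% of all genes were higher, namely *H2afz*, *Tubb5*, the replication genes *Mcm2*, *Mcm6* and *Mcm7*, *Tyms* and *Rrm1*, with log2 fold changes between 0.75 and 1.28. In 1 of the P14 pools *Mcm6*, *Mcm7*, *Tyms* and *Rrm1* were not called (0.57, 0.60, 0.43 and 0.66), and *Tyms* was not with equal group medians of UMIs per cell, nor *Mcm6* over both AT2 clusters. The proliferation marker *Mki67* was in too few cells to be called. Its level at P14 was from 1.28 to 4.69 CPM in normoxia (median 2.25) and from 3.86 to 30.8 CPM in hyperoxia (median 17.7) (2.52 (SE 0.59, adjusted p = 0.000597)). The G1 cyclin *Ccnd1* was higher at P14 (1.37 (SE 0.18, adjusted p = 4.6e-08)) and not called at P3 or P7 (with the pool as a replicate block it was lower at P7, -0.50, edgeR adjusted p = 0.0175), with an interaction of 1.84 (SE 0.25, adjusted p = 4.14e-06). At P7 *Ccnd1* was also called as lower with plain library totals (-0.54, edgeR adjusted p = 0.0280) and over both AT2 clusters (-0.54, edgeR adjusted p = 0.0162). Its median fell from 111 to 47.2 CPM between P7 and P14 in normoxia and was 130 CPM in hyperoxic P14 cells.

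Most genes of the transitional state between AT2 and AT1 cells were higher at P14. This state, known from injured lungs, is marked by keratins such as *Krt8*. Of its 23 tested genes, 16 were higher and none lower at P14, against 3 higher and 2 lower at P3 and 5 and 2 at P7, and the oxygen effect of 8 was more positive at P14 than at P7. Of all genes, 4.67%, 7.58% and 19.4% were higher and 3.5%, 6.56% and 17.2% lower at P3, P7 and P14. The oxygen effect was more positive at P14 than at P7 for 3.86% of all genes. *Krt8* was from 155 to 199.5 CPM in normoxia (median 188) and from 254 to 321 CPM in hyperoxia (median 282) at P14, without overlap (0.68 (SE 0.12, adjusted p = 1.7e-05)), and 0.03 and 0.17 on the log2 scale at P3 and P7, where it was not called. *Krt18*, *Krt19* and *Krt7* were higher at P14, by 0.59, 0.73 and 1.18. *Itgb6*, a subunit of the integrin that activates TGF-β, rose by 2.45 (SE 0.33, adjusted p = 6.08e-08), *Anxa1* by 1.67 and *Lgals3*, a galectin, by 1.11, 1.51 and 2.34. *Nupr1* differed from the list, being higher at P3 and P7 (1.10 and 0.80) and not called over all mice at P14, where it was -0.33 and 0.89 within the 2 pools and called in both, in opposite directions (edgeR adjusted p = 0.0132 and 0.000761). The list shares *Cdkn1a* with the p53 list.

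More genes that mark AT1 cells were lower than higher at each age. Of 25 tested, 6, 4 and 10 were lower and 0, 1 and 4 higher at P3, P7 and P14, against 3.5%, 6.56% and 17.2% of all genes lower and 4.67%, 7.58% and 19.4% higher. *Ager*, a receptor that is the most abundant of them in these cells, was from 745 to 963 CPM in normoxia (median 842) and from 261 to 566 CPM in hyperoxia (median 343) at P14, and its log2 fold change was -0.61 (SE 0.12, adjusted p = 0.000329), -1.05 and -1.19 (SE 0.12, adjusted p = 5.55e-11), without overlap at any age. The matrix collagen *Col4a4* was lower at P3 and P14 (-1.21 and -1.02), whereas *Krt7* and *Sema3e* were higher at P14 (1.64 for *Sema3e*). The defining AT1 markers, summed, were 1033 to 1265 CPM in normoxic and 532 to 853 CPM in hyperoxic P14 AT2 cells. The part of free RNA from AT1 cells in this was not tested.

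Among transcription factors and signals of AT2 cells, more genes were lower than higher. Of 36 transcription factor genes of the alveolar epithelium, 5, 11 and 20 were lower and 0, 2 and 3 higher at P3, P7 and P14 (3.5%, 6.56% and 17.2% of all genes lower and 4.67%, 7.58% and 19.4% higher), or 8 lower and 1 higher at P3 with the pool as a replicate block. The fit with the block called 5.11% of all genes lower and 6.91% higher at P3. *Nkx2-1*, the factor that defines lung epithelium and drives surfactant genes, was from 352 to 424 CPM in normoxia (median 386) and from 191 to 233 CPM in hyperoxia (median 211) at P14 (-0.82 (SE 0.09, adjusted p = 5.12e-10)), and lower by 0.29 at P7. *Cebpa*, which promotes AT2 maturation, was lower at P7 and P14 (-0.49 and -1.04), and *Etv5*, which keeps AT2 cells from becoming AT1 cells, at all ages (-0.60, -0.73 and -1.06). *Klf4* fell at all ages, by 0.59, 1.17 and 1.44, without overlap between the groups. *Epas1*, the gene of HIF-2α, rose in normoxia from P7 to P14 (1.63 (SE 0.12, adjusted p = 1.07e-13)) and not in hyperoxia (0.31, adjusted p = 0.111), so that at P14 it was from 170.3 to 249 CPM in normoxia (median 229.7) and from 70.7 to 96.2 CPM in hyperoxia (median 86) (interaction -1.32 (SE 0.17, adjusted p = 1.5e-06)). The hyperoxic change of *Epas1* was called with plain library totals (0.41, adjusted p = 0.0197). *Hif1a* was higher at P7 and P14, by 0.47 and 0.66.

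Among 36 genes of FGF, WNT and BMP signalling 5, 12 and 21 were lower (3.5%, 6.56% and 17.2% of all genes), and 2 were higher, both at P14 (19.4%). The BMP target *Id3* had levels from 183 to 432 CPM in normoxia (median 271) and from 43.7 to 114 CPM in hyperoxia (median 82.3) at P7 and from 144 to 252 CPM in normoxia (median 174) and from 29.3 to 85.7 CPM in hyperoxia (median 55.1) at P14, without overlap, and log2 fold changes of -0.80, -1.74 (SE 0.21, adjusted p = 4.81e-08) and -1.63. *Id1* was lower at P7 and P14 (-1.27 and -0.78), *Id2* at all ages (at P3 -0.13 and not called within 1 pool), and the ligand *Bmp4* at P7 and P14 (-1.02 and -0.79). The FGF receptor genes *Fgfr2*, whose product binds FGF7, and *Fgfr3* were lower at P7 (-0.49 and -0.70) and P14 (-0.91 and -1.77), as was *Spry1*, a feedback inhibitor of FGF signalling. *Notum*, which inactivates WNT proteins, fell by 1.28 at P7 and 2.24 at P14. *Axin2*, a WNT target that marks a stem cell fraction of AT2 cells, was not called at any age (-0.51 at P14, adjusted p = 0.0532). It lay near the threshold at P14, and passed it as lower with the pool as a replicate block (adjusted p = 0.0461), with plain library totals (adjusted p = 0.0451), over both AT2 clusters together (adjusted p = 0.0159) and without the P7 mouse with 11 AT2 cells (adjusted p = 0.0496). *Pmepa1*, a TGF-β target and feedback inhibitor, was higher at P7 and P14 (0.88 and 2.11 (SE 0.15, adjusted p = 7.14e-15)), as was *Pdgfa*, the growth factor that AT2 cells send to myofibroblasts (0.75 and 1.35 (SE 0.13, adjusted p = 3.09e-11)).

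*Vegfa*, the endothelial growth factor, was not called at P14, and its levels there, from 82 to 166 CPM in normoxia (median 116) and from 88.4 to 144 CPM in hyperoxia (median 116), overlapped. The receptors that the study itself singled out in AT2 cells were chosen on these samples, so their direction is not independent evidence. Of the 5 that were tested, *Nrp1* was lower at all ages, by 0.62, 0.88 and 1.04, and the others were not called. Of the integrated stress response list, *Phgdh*, of serine synthesis, and *Asns*, of asparagine synthesis, rose at all ages, *Phgdh* by 2.50, 2.06 and 2.93 and *Asns* by 1.66, 2.35 and 2.44. The list as a whole had 4, 7 and 8 higher and 2, 1 and 7 lower of 30 genes, against 4.67%, 7.58% and 19.4% of all genes higher and 3.5%, 6.56% and 17.2% lower, or 5 and 4 lower at P3 and P7 with the replicate block. The fit with the block called 5.11% and 8.26% of all genes lower at P3 and P7. *Hspa5*, the chaperone of the unfolded protein response, was lower at P3 (-0.62, but -0.11 and -0.99 within the 2 pools). At P7 it was not called (adjusted p = 0.118), but was lower with the pool as a replicate block (-0.40, edgeR adjusted p = 0.0412), within 1 pool (-0.60, adjusted p = 0.00316) and without the filter on low counts (adjusted p = 0.0432). Glycolysis genes *Aldoa* and *Gapdh* were higher at all ages, *Gapdh* by 0.56, 0.72 and 1.39, and *Eno1* by 1.71 at P14. The water and glycerol channel *Aqp3* rose by 0.88, 3.25 and 2.80, and the sodium channel subunit *Scnn1b*, which serves fluid clearance, by 1.17 at P7 and 1.79 at P14.

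The other lists differed in direction. More genes were lower than higher at P3 and P7 in the NF-κB response, immediate early and basement membrane lists. More were higher than lower at these ages in the hypoxia-inducible factor and heat shock lists. Several P14 counts of these lists lay near the 19.4% of all genes that were higher and the 17.2% that were lower at this age. Of 32 targets of hypoxia-inducible factor and glycolysis genes, 4, 8 and 12 were higher and 1, 1 and 10 lower at P3, P7 and P14. For these and the lists that follow, 4.67%, 7.58% and 19.4% of all genes were higher and 3.5%, 6.56% and 17.2% lower. Heat shock genes were higher for 2, 3 and 5 of 16, and lower for 1 at P3. Of 19 immediate early genes, 3, 4 and 7 were lower and 1 was higher, at P14, and of 20 NF-κB response genes 5, 5 and 6 were lower and 0, 1 and 5 higher. Of 24 ion and water transport genes 2, 4 and 6 were higher and 1, 0 and 7 lower, of 24 signals to neighbouring cells 0, 3 and 6 and 1, 3 and 4, and of 22 basement membrane and matrix genes 0, 0 and 4 and 4, 4 and 5. Of 11 genes that the study named in AT2 cells, which it chose on these samples, 1, 3 and 3 were higher and 4 were lower at each age. With the pool as a replicate block, 2 hypoxia-inducible factor targets or glycolysis genes were lower at P3 and at P7, 2 heat shock genes at P7 and 1 at P14, and 2 transport genes at P3 and at P7. With it, 2 and 1 immediate early genes were higher at P3 and P7, 1 signal was higher at P3 and 5 were lower at P7. The fit with the block called 6.91% and 9.63% of all genes higher at P3 and P7. It called 5.11%, 8.26% and 19.1% lower at P3, P7 and P14.

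Of the imprinted genes of the embryonic growth network, *Meg3*, a long non-coding RNA, fell in hyperoxia at each age (-0.98, -1.17 and -2.85 (SE 0.21, adjusted p = 1.38e-14)), and its neighbour *Dlk1* at P3 and P7 (-1.28 and -1.79). The fall of *Dlk1* at P3 was not called with DESeq2 (adjusted p = 0.129) or within 1 pool (edgeR adjusted p = 0.0947). Of the 12 tested genes of the list 4, 5 and 1 were lower and 0, 0 and 2 higher at P3, P7 and P14, against 3.5%, 6.56% and 17.2% of all genes lower and 19.4% higher at P14. At P14 *Dlk1* was too rare to be called, at levels from 9.91 to 105 CPM in normoxia (median 29.1) and from 0 to 8.25 CPM in hyperoxia (median 0.836). Both also fell with age in normoxia from P7 to P14, by 0.82 and 2.71, as did 8 of the 12, against 10.1% of all genes.

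In normoxia, fewer genes of AT2 cells were called from P3 to P7 than from P7 to P14. Since 1 pool held both P3 and P7 mice and none held P7 and P14 mice, the designs behind these counts differ. Pool and age cannot be told apart in the second count. From P3 to P7, 165 genes were called (1.89%, 69 or 0.792% higher and 96 or 1.1% lower), and from P7 to P14 1694 (19.4%, 811 or 9.31% higher and 883 or 10.1% lower). With the pool as a replicate block 162 genes were called from P3 to P7, and 87 of them were among the 165. Apart from the class II genes, the largest increases over the first interval were in *Acoxl* (1.28), *Adamts1* (1.17) and the apolipoprotein gene *Apoe* (1.11), besides the haemoglobin gene *Hbb-bs* (5.95), which was not called with the pool as a replicate block (0.71). The largest decreases were in *S100a6*, a calcium-binding protein (-2.37 (SE 0.30, adjusted p = 2.38e-06)), the secretoglobin *Scgb3a2* (-1.45) and nephronectin, *Npnt* (-1.21). Plain library totals gave 1010 higher and 609 lower for the second interval. Of the 10 AT2 markers 3 were higher and 3 lower over it, and of the 4 surfactant protein genes none was higher and 1 lower. *Slc34a2* (0.81), *Abca3* and *Fasn* (0.74) rose, as did *Scd1*, which makes unsaturated fatty acids (0.93). The largest increases were in *Rgcc* (2.24), glutamine synthetase, *Glul* (1.98), and *Epas1*. The largest decreases were in *Dlk1*, *Lyz1* and the actin-binding gene *Tmsb10* (-1.49). These 6 genes and the 4 named before them kept their direction with plain library totals. For *Lyz1*, which separates the 2 AT2 clusters, the fall is a description.

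In hyperoxia, fewer genes were called over the second interval, and the difference between the courses is the interaction given for single genes. From P7 to P14, 666 were called (7.64%, 333 or 3.82% in each direction, or 621 higher and 168 lower with plain library totals, which moved the median of all genes by 0.10), and from P3 to P7 245 (2.81%, 120 or 1.38% higher and 125 or 1.43% lower, or 94 and 161). With the pool as a replicate block 364 genes were called from P3 to P7, and 171 of them were among the 245. *Rgcc* and *Glul*, which led the normoxic rise, were not called in hyperoxia between P7 and P14, with 0.21 and 0.28, and the difference between the courses was called for both (-2.03 and -1.70). So it was for *Errfi1*, a feedback inhibitor of the EGF receptor, which rose in normoxia from a median of 324 to 768 CPM and in hyperoxia went from 293 to 284 CPM (interaction -1.44 (SE 0.22, adjusted p = 2.46e-05)), and for *Cbr2*, a carbonyl reductase (-1.62 (SE 0.21, adjusted p = 1.5e-06)). *Ly6c1*, *Nme1* and *Anxa1* had interactions in the other direction, 1.51, 1.42 and 1.38.

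For 4 genes the share of AT2 cells with a UMI was measured after each cell was thinned to 2000 UMIs. *Lcn2* was found in 67.9% ± 6.10 of normoxic and 93.3% ± 3.65 of hyperoxic P14 cells (SD over 6 mice, with adjusted p = 0.0130 in the exact permutation test), and in 3.19% and 4.60% of gCap cells, which should lack it. *Krt8* was found in 26.1% ± 4.22 and 41.7% ± 5.35 of P14 cells (exact permutation test, adjusted p = 0.0130), with 0.689% and 0.512% in gCap cells. *Lyz1*, whose low level marks this cluster, was found in 26.8% of normoxic and 14.8% of hyperoxic cells at P3 and in 24.4% and 9.08% at P7, given without a test, with 3.55 to 4.0% in gCap cells. For *Axin2* the share was 5.29% and 4.21% at P14, and 4.57% and 2.30% in gCap cells. Before thinning it was 14.4% and 19.4%, and 7.12% and 6.08% in gCap cells. Since gCap cells were not shown to lack *Axin2*, their share is no measure of background for it. The size of an expressing fraction was therefore not measured. Before thinning, *Krt8* was in 59.0% and 89.1% and *Lcn2* in 90.0% and 98.3% of P14 AT2 cells, and *Lyz1* in 40.8% and 31.6% at P3 and 49.6% and 38.0% at P7. At P3, P7 and P14 between 4 and 33 AT2 cells of a group were too shallow and left out, and of gCap cells between 86 and 1100, the most being 1100 of 2261 in normoxic P14 lungs. The median depth before thinning was 6959 and 13183 UMIs in P14 AT2 cells and 2038 and 4445 in gCap cells.

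The response at P14 was compared with that of the neighbouring types. Against AT2-Lyz1+ cells, the oxygen effect differed for 5 of 6673 genes (0.0749%, 2 or 0.03% more positive and 3 or 0.045% more negative in AT2 cells; 380 had an unadjusted p under 0.05, and DESeq2 called 2). They were *Lyz1*, the gene in which the clusters differ most, *Lyz2*, *Il33*, *Igfbp7* and *Akap5*, the last 3 of which are named here after their values were seen, with 5 hyperoxic mice that had enough AT2-Lyz1+ cells. For *Igfbp7* the effect was larger in AT2 cells by 0.88 and for *Il33*, an alarmin cytokine, smaller by 0.78. Against AT1 cells it differed for 412 of 7790 genes (5.29%, 159 or 2.04% more positive and 253 or 3.25% more negative in AT2 cells). Of 20 tested cholesterol genes, 14 were more negative in AT2 cells and none more positive. In AT1 cells *Insig1* was 5.82 to 22.4 CPM in normoxia and 22.7 to 42.1 CPM in hyperoxia at P14. Its oxygen effect was more negative in AT2 than in AT1 cells (difference -2.64, SE 0.35, edgeR adjusted p = 8.57e-06). Of 75 ribosomal protein genes, 56 were more negative in AT2 cells, while none of the 31 proteasome genes and none of the 7 class II genes was called.

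Markers of other cell types were summed as well. The summed level of 7 endothelial markers was 34.4 to 60.4 CPM in normoxic and 45.1 to 54.1 CPM in hyperoxic P14 AT2 cells, and that of 9 stromal markers 172 to 284 and 124 to 190 CPM. Club cell markers, led by *Scgb1a1*, were 923 to 1229 and 741 to 1942 CPM. Erythroid genes, whose near-identical copies share reads, were low in most mice and high in some, reaching 2833 CPM in a normoxic P7 mouse and 1136 CPM in a normoxic P14 mouse, with a median of 8.90 CPM in normoxia and 5.64 CPM in hyperoxia at P14.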

How the data were processed

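Single-cell RNA of 36 mouse lungs was sequenced from 6 droplet libraries (10x 3′ v3) of 5 pools. Per the labels and the study's methods, the authors aligned reads to mm10 and counted UMIs with Cell Ranger 3.0.2, assigned cells to mice by MULTI-seq barcodes, removed doublets and low-quality cells before deposit, and named the clusters; the deposited matrix holds raw UMI counts of 61839 cells and 22100 genes. The authors' share of mitochondrial UMIs per cell, deposited as a percent, was used as given. The age, oxygen level, mouse and cell type of each cell came from the deposited annotation, since the samples in the labels are pools.

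UMIs of AT2 cells were summed per mouse (at least 10 cells) and fitted with edgeR 4.0.16 in R 4.3.3 (TMM, filterByExpr, quasi-likelihood, 6 group means, Benjamini-Hochberg over 8715 genes). Standard errors are the log2 fold change divided by the square root of F. For shares and UMIs per cell, the exact permutation test was two-sided over the 924 splits of the 12 mice of an age (smallest p 0.00216) with adjustment over 9 shares, 3 depths, 3 mitochondrial shares and 12 cell shares in turn. Reads per library were not used, and mice, not cells, were the replicates. Mice of a pool shared libraries, and their deviations from the group means correlated between the oxygen levels of a pool (0.398 at P3, 0.397 at P7 and 0.201 at P14), so the fit with the pool as a replicate block was run beside the one without. Named genes were those of gene lists and the 10 largest called changes in each direction whose average log2 CPM was 6 or more. Some genes that this rule takes in are not reported here. The lists and the AT2 cells as a subject were chosen with earlier results of these data known. *Hbb-bs*, the other haemoglobin genes, *Lyz1* and *Lyz2* and class I genes share reads with close copies. DESeq2 1.42.0 and the alternatives named in the closing section were fitted on the same sums, and the scripts were tested on simulated data.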

Additional observations from a re-analysis of the deposited data

Results flagged for a closer look

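Of 100 groups of 6 mice whose values are given, 4 had a mouse far from the other 5, and chance gives about 5% of groups. *Ager* was 566 CPM in a hyperoxic P14 mouse, against 261 to 358 CPM in the others. *Clu* was 25.6 CPM in a normoxic P14 mouse, against 35.9 to 41.1 CPM, and *Slpi* 106 CPM in a normoxic P14 mouse, against 31.4 to 55.7 CPM. The share of both AT2 clusters was 11.5% in a normoxic P14 mouse, against 8.31% to 9.51% in the others.

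The oxygen effect differed between P14 and P7 for 20 of the named values, tested as an interaction with edgeR. It was more positive at P14 for *H2-Ab1* by 2.26, *Ciita* by 2.12, *Ccnd1* by 1.84, *Clu* by 1.82, *Cd74* by 1.58, *Ly6c1* by 1.51, *Nme1* by 1.42, *Anxa1* by 1.38, *Mif* by 1.14 and *Me1* by 0.52. It was more negative at P14 for *Rgcc* (-2.03), *Glul* (-1.70), *Cbr2* (-1.62), *Errfi1* (-1.44), *Epas1* (-1.32), *Cat* (-1.30), *Pcyt1a* (-0.90), *Slc34a2* (-0.82), *Abca3* (-0.67) and *Gpx1* (-0.59). All of the P14 pools were separate from the P7 pools, so pool and age cannot be told apart in these differences. The difference for *Me1* was not called with equal group medians of UMIs per cell or without the filter on low counts. Between P7 and P3 the effect on *Lcn2* differed by 2.21.

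Between cell types at P14, the oxygen effect in AT2 cells differed from that in AT2-Lyz1+ cells by 1.98 for *Akap5*, 0.88 for *Igfbp7*, -0.66 for *Lyz2*, -0.78 for *Il33* and -1.43 for *Lyz1*. *Lyz1* separates these clusters, so its value is a description. It differed from that in AT1 cells by -2.64 for *Insig1*.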

How the results depend on the processing

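Of 332 named values (a gene in a comparison), between 322 and 331 kept their direction and their side of the threshold with DESeq2, plain library totals, no filter on low counts, no criterion on detection, both AT2 clusters together, or without the P7 mouse with 11 AT2 cells, which is also the fit on mice with at least 25 AT2 cells, and 327 of 330 did with equal group medians of UMIs per cell. Within the single pools, of 3 against 3 mice, fewer were kept, with 65 of 69 in Lung_P3, 137 of 164 in Lung_P3_P7, 76 of 93 in Lung_P7, 112 of 121 in Lung_P14_1 and 109 of 119 in Lung_P14_2. Calls that were lost in a pool and moved by more than 1.5 times were *Hspa5* at P3 (-0.11) in Lung_P3, *Cd74* (-0.28), *Me1* (0.18), *Lpcat1* (-0.28), *Id2* (-0.13), *Hexim1* (-0.51) and *Col4a4* (-0.79) at P3 and *Pmepa1* at P7 (0.48) in Lung_P3_P7, *Cd74* (-0.30), *Notum* (-0.77), *Lyz2* (-0.21), *Txnrd1* (0.19) and *Ndufa12* (0.28) at P7 in Lung_P7, *Gpx1* (0.08), *Gpx4* (0.16), *Gstm1* (0.12) and *Srebf1* (-0.21) at P14 in Lung_P14_1, and *Bbc3* (-0.57), *Mcm7* (0.60) and *Tyms* (0.43) at P14 in Lung_P14_2. Calls gained in a pool were *Slpi* (0.92) and *Lcn2* (-0.57) at P3 in Lung_P3, *Sftpc* at P3 (-0.18) in Lung_P3_P7, *Hspa5* at P7 (-0.60) in Lung_P7, *Sod1* (-0.43), *Hp* (0.31) and *Nfe2l2* (-0.28) at P14 in Lung_P14_1, *Nupr1* (0.89) at P14 in Lung_P14_2 and *Sftpc* at P14 in both of these (-0.11 and -0.18). No value called over all mice changed its sign. The values not called over all mice for *Krt8* at P3 and P7 were -0.0502 and -0.19 within 1 pool each, and those of *Nfe2l2*, *Nupr1* and *Vegfa* at P14 0.0114, -0.33 (itself called) and -0.0661 and that of *Sftpc* at P3 0.0171 within 1 pool each, the opposite sign in each case. With the pool as a replicate block 308 of 316 named values were on the same side, and the exceptions were *Sftpc* and *Axin2* at P14, *Nfe2l2* at P3, *Sod1* at P3 and P14, *Ccnd1* and *Hspa5* at P7 and *Hbb-bs* between P3 and P7, given above. The block changed no other named call, could not be run for P14 against P7 within an oxygen level, where pool and age coincide, and moved the count of the oxygen effect at P7 against P3 from 2 to 10 and that at P14 against P7 from 705 to 1058. It moved 28 of 186 counts of lists by more than 1.5 times, most of them counts of 0 to 3. The difference in UMIs per cell at P3, 1609.75 (1610 rounded), passed when labels were permuted within pools (adjusted p = 0.00500). Within single pools 347 genes were called at P3, 730 and 589 at P7 and 1736 at P14 in the pools with fewer calls, each fit having 6 of the 12 mice. No filter on low counts gave 30 genes for the oxygen effect at P7 against P3, and both AT2 clusters together gave 9, and 261 for P7 against P3 in normoxia. DESeq2 called 2 genes as differing between AT2 and AT2-Lyz1+ cells. Without thinning, the differences in the share of cells with *Lyz1* were -9.16 and -11.6 percentage points at P3 and P7, and those of *Krt8* at P3 (7.21) and *Axin2* at P14 (5.00), negative and not called at 2000 UMIs, were positive and not called, and that of *Lyz1* at P14, negative at 2000 UMIs, was 1.34. At 1000 UMIs that of *Axin2* at P7 was 0.421, and that of *Lyz1* at P14 was -3.70, the shares of cells with *Lyz1* being given without a test. Calls lost with DESeq2 were *Csf2* at P14 (adjusted p = 0.138), *Dlk1* at P3 (adjusted p = 0.129), *Mt2* at P7 (adjusted p = 0.0653) and *Cd74* at P7. Plain library totals lost *Ctsh*, *Lamp2* and *Txnrd1* at P7 (adjusted p between 0.0536 and 0.0571) and *Me1* at P3. *Csf2* (adjusted p = 0.0571) and the interaction of *Me1* (adjusted p = 0.0503) were lost with equal UMIs per cell, as was *Tyms* at P14 (adjusted p = 0.0644). Over both clusters together *Mcm6* (adjusted p = 0.0520), *Lyz2* at P3 and P7 and, by the criterion on detection, *Gpx2* at P3 were lost. Without the filter on low counts *Gpx1* and *Gpx4* at P14 (adjusted p = 0.0835 and 0.106), *Nkx2-1* at P7 (adjusted p = 0.168) and the interaction of *Me1* (adjusted p = 0.0652) were lost and *Slpi* and *Lcn2* at P3, *Ccnd1* and *Hspa5* at P7 and *Hp* and *Nupr1* at P14 were gained, with the prior degrees of freedom of that fit at 453, against 16.1. The medians of 4 lists in the oxygen comparisons changed sign with plain library totals, each from a value within 0.07 of 0: p53 targets at P3, interferon response at P7, and stress response and hypoxia-inducible factor targets at P14. The cause of these changes was not tested. The lowest depth was 11 AT2 cells in 1 P7 mouse and a median of 4068.5 UMIs per AT2 cell in 1 P3 mouse, and its part in the counts at these ages was not tested.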
